A study of Mus musculus with 8 samples.

Results

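The genes described here encode the main steps by which insulin acts inside a fat cell: the insulin receptor (Insr), its adaptors (Irs1, Irs2, Irs3), a regulatory and a catalytic subunit of phosphoinositide 3-kinase (Pik3r1, Pik3ca), the AKT kinases (Akt1, Akt2) and the transcription factors that AKT restrains (Foxo1, Foxo3). They were taken as a listed set of 10 genes of the 22180 genes that could be named on the array, each read by its brightest probe set with a single gene symbol, and all 10 were among the 14327 genes bright enough to be tested. The samples were brown adipose tissue, fat that burns fuel to make heat, from 8 male C57BL/6J mice, with 1 mouse on each Affymetrix Mouse Gene 2.0 ST array. The WT group held 3 mice and the Abhd15 KO group 5. Mice of both groups were kept on normal chow, fasted overnight and given chow again for 1 h before harvest, at a stated age of 14 weeks (the sample labels give up to 14 weeks on this diet). The labels name a deletion of Abhd15, a fat cell gene of the alpha/beta hydrolases, without saying which part of the gene was removed.

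When insulin binds, the receptor phosphorylates the IRS proteins, which recruit phosphoinositide 3-kinase through its regulatory subunit. The lipid it makes brings AKT to the membrane, where AKT is switched on, promotes glucose uptake and lipid storage, and drives FOXO proteins out of the nucleus. In mouse liver FOXO proteins raise transcription of Irs2 during fasting, and feeding lowers it again. Irs3 is an adaptor that rodents express mainly in fat.

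Values are deposited log2 values per probe set, and a difference of 1 is a doubling. A gene was tested where it read above 2.67, a dim limit set from receptor genes of the nose, on at least 3 arrays. The gene under deletion did not check the labels. Abhd15 read 6.01 ± 0.19 in WT (SD, n = 3) and 6.12 ± 0.27 in the KO-labelled mice (SD, n = 5), so directions below rest on what the labels say, and these animals are called KO-labelled. The tissue markers were present, with Ucp1, the uncoupling protein of brown fat, between 12.51 and 12.89 on all 8 arrays. A mean over 10 brown adipocyte markers ranged from 9.73 to 9.97 in WT and from 9.40 (Abhd15 KO 3) to 10.11 in the KO-labelled mice. Not all of these markers were as steady as Ucp1, and Dio2 ranged from 4.47 in Abhd15 KO 3 to 8.32 in Abhd15 KO 5. A mean over 8 white adipocyte markers ranged from 4.33 to 4.36 in WT and from 3.95 to 4.41 in the KO-labelled mice. A mean over 16 skeletal muscle markers ranged from 5.29 to 8.07 in WT and from 4.56 to 7.35 in the KO-labelled mice, and a mean over 10 macrophage markers from 5.26 to 5.82 and from 4.75 to 5.55. A mean over 10 endothelial markers ranged from 6.98 to 7.35 and from 7.08 to 7.52. In the KO-labelled mice 16 of 16 muscle and 9 of 10 macrophage markers read lower and 10 of 10 endothelial markers higher, and 0 of them passed the limma test used below. In whole tissue, fewer cells of a type and less RNA per cell cannot be told apart.

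The adaptor genes Irs1 and Irs2 are shown by the sequence before their start sites, because they carried a pair of letter motifs that none of the other members with a RefSeq window had. RefSeq windows (build GRCm38.p6) matched 9 of the 10 members, and the 250 bases upstream of each start were searched on both strands. The motifs were the FOXO core GTAAACA, the insulin response core TNTTTTG, the E-box CACGTG and the cyclic AMP response element TGACGTCA. The FOXO core was searched in this form only. A window without it may still hold other sequences that FOXO proteins bind, the insulin response core among the candidates. In the 2 sequences, written 5′ to 3′ on the gene's strand, capitals mark E-boxes and insulin response cores.
Irs1: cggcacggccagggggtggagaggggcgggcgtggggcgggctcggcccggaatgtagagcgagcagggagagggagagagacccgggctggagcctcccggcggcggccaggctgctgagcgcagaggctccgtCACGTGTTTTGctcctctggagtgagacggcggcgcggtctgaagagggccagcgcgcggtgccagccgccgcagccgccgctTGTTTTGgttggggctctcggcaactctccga
Irs2: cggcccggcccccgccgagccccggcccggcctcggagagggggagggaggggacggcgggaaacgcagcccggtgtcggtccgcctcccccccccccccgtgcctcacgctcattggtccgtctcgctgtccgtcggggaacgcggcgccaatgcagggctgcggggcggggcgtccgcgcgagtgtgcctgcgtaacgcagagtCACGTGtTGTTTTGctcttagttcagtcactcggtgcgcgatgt
The Irs1 sequence is chr1:82291440-82291689 and the Irs2 sequence chr8:11008930-11009179, both on the minus strand. In Irs2 the E-box starts at position −44 and the insulin response core at −37, counted from the start site. In Irs1 the E-box starts at −115 and overlaps a core that starts at −111, and another core starts at −32. An E-box was present in 6.02% of the 32851 windows of all genes and an insulin response core in 16.9%. These shares count windows, whereas the 9 members had 14 windows between them. G and C made up 72.4% of the Irs1 and 72.8% of the Irs2 sequence, against a median of 52.4% over all windows. The shares were not matched for this content. The pair with starts within 10 bases of each other, a measure chosen after these sequences were seen, was present in 12 windows (0.0365%). The insulin response core was also found in an Akt1 and a Pik3r1 window, and the FOXO core, present in 3.17% of all windows, in an Akt1 window. The cyclic AMP response element (1.55% of all windows) was in none of the windows of these 9 genes. A match describes letters and is not evidence of binding.

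No difference between the labels passed the test in any of the 10 genes. With limma, 0 of 10 passed an adjusted p of 0.05, where 0% of all 14327 tested genes did, and each of the 10 had an adjusted p of 0.9996. An unadjusted p under 0.05 was found for 0 of 10, against 4.22% of all tested genes, and the groups did not overlap in 0 of 10, against 2.95% of all tested genes. Of the 10, 5 read higher and 5 lower in the KO-labelled mice, with a median difference of −0.02 beside 0.01 over all tested genes. With 3 mice against 5 there are 56 ways to assign the labels, and an exact permutation p cannot go below 0.0179. Leaving out single arrays turned the sign of the difference in Insr, Irs1, Irs3, Akt1, Foxo1 and Foxo3.

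**Figure D1:**
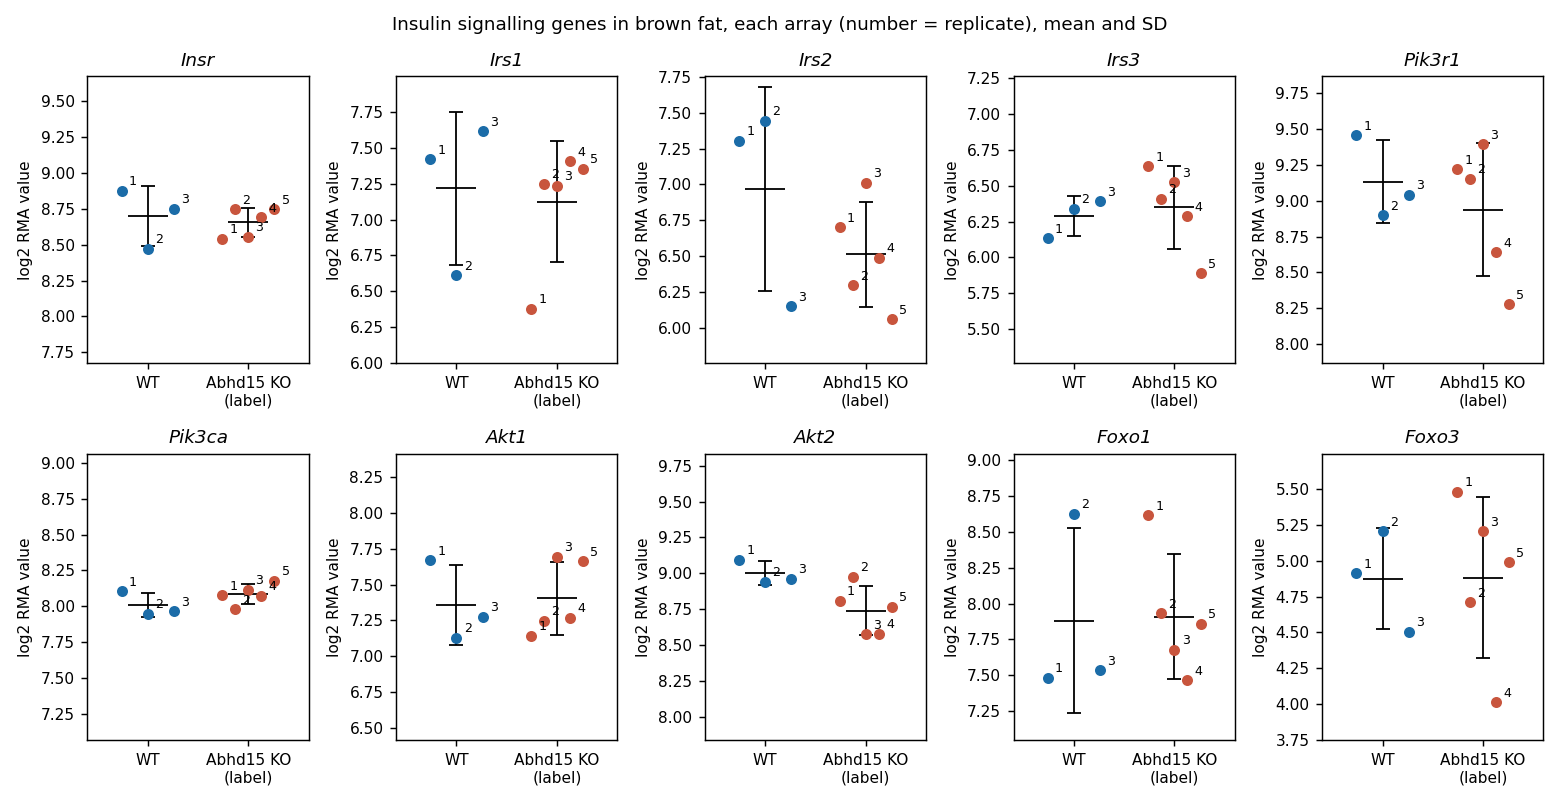
Log2 RMA value of each insulin signalling gene (vertical axis, 2 log2 units high in every panel) on each array, by label (horizontal axis), with the replicate number beside each point and a bar for the group mean and SD. The groups overlap in all 10 genes, and WT 2 and Abhd15 KO 1 are the lowest arrays for Irs1 and the highest for Foxo1.

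The receptor varied little. Insr read 8.88, 8.47 and 8.75 in WT 1 to 3 and 8.54, 8.75, 8.56, 8.69 and 8.75 in KO-labelled mice 1 to 5. The highest and the lowest array were both WT, and the other label lay between them. The difference was −0.04 (95% confidence interval −0.33 to 0.24, exact permutation p = 0.661).

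Of the adaptors, Irs2 had the largest difference of the 10 genes in size, and it did not exceed the spread between mice. Irs2 read 7.31, 7.45 and 6.15 in WT and 6.70, 6.30, 7.01, 6.49 and 6.06 in the KO-labelled mice. A pair of WT mice were the highest of the 8, while WT 3 was lower than every mouse of the other label except Abhd15 KO 5. The group means were 6.97 ± 0.71 and 6.51 ± 0.37, which differed by −0.46 (−1.15 to 0.24, exact permutation p = 0.268), or 0.729 times the WT level. The difference was −0.86 without WT 3 (−1.41 to −0.31, limma adjusted p = 0.932), −0.22 without WT 2 (−0.98 to 0.55) and −0.29 without WT 1 (−1.10 to 0.53). The mean of the skeletal muscle markers was 8.07 and 7.01 in WT 1 and 2 and 5.29 in WT 3, and over 8 arrays the 16 markers had r between 0.32 and 0.70 with Irs2, given as a description. With the muscle mean as a covariate the Irs2 difference was −0.32 (−0.997 to 0.36).

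Irs1, the other widely expressed adaptor, read 7.42, 6.61 and 7.62 in WT and 6.38, 7.25, 7.24, 7.41 and 7.36 in the KO-labelled mice. WT 2 and Abhd15 KO 1 stood below the other 6 arrays, which spanned 7.24 to 7.62. The difference between the labels was −0.09 (−0.73 to 0.55, exact permutation p = 0.821), and it was 0.11 without WT 3, −0.39 without WT 2 and 0.10 without Abhd15 KO 1. A dimmer Irs1 probe set was lowest in Abhd15 KO 1 (3.55) and read 4.37 in WT 2, within the range of the other arrays (4.27 to 4.95). Irs3 read 6.14, 6.34 and 6.39 in WT and 6.64, 6.41, 6.52, 6.29 and 5.89 in the KO-labelled mice. The WT values lay inside the range of the other label, and the means differed by 0.06 (−0.33 to 0.45, exact permutation p = 0.768).

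The 2 subunits of phosphoinositide 3-kinase behaved differently in their spread. Pik3ca, the catalytic subunit p110 alpha, read 8.10, 7.95 and 7.97 in WT and 8.08, 7.98, 8.12, 8.07 and 8.18 in the KO-labelled mice, a difference of 0.08 (−0.15 to 0.31, exact permutation p = 0.232). All 8 values lay within 0.23 of each other. Pik3r1, which encodes the regulatory subunit p85 alpha and its shorter forms, read 9.46, 8.90 and 9.04 in WT and 9.22, 9.15, 9.39, 8.64 and 8.28 in the KO-labelled mice. Abhd15 KO 4 and 5 were the lowest of the 8 mice, and the other 3 mice of that label lay within the WT range. The difference was −0.19 (−0.78 to 0.39, exact permutation p = 0.571), and it was −0.03 without Abhd15 KO 5.

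Akt2, the AKT form that insulin-stimulated glucose uptake depends on most in mice, had the lowest unadjusted p of the 10 genes. It read 9.09, 8.94 and 8.96 in WT and 8.81, 8.98, 8.57, 8.58 and 8.77 in the KO-labelled mice. Apart from Abhd15 KO 2, every mouse of that label read below all 3 WT mice. The group means were 9.00 ± 0.08 and 8.74 ± 0.17, which differed by −0.26 (−0.54 to 0.02, exact permutation p = 0.0893), or 0.835 times the WT level. Over the 18 other settings tried the Akt2 difference ranged from −0.32 to −0.21, and its lowest adjusted p from limma was 0.947.

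Akt1, the more widely expressed form, read 7.67, 7.13 and 7.28 in WT and 7.14, 7.25, 7.70, 7.27 and 7.66 in the KO-labelled mice (difference 0.04, −0.36 to 0.45, exact permutation p = 0.696). Its values fell into 2 sets that crossed the labels. WT 1, Abhd15 KO 3 and Abhd15 KO 5 lay between 7.66 and 7.70 and the other 5 arrays between 7.13 and 7.28, and the gap between the sets was 68.5% of the whole range.

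Foxo1, the main FOXO factor of insulin-responsive tissues, read 7.48, 8.63 and 7.53 in WT and 8.62, 7.93, 7.68, 7.46 and 7.86 in the KO-labelled mice. The highest mouse of each label, WT 2 and Abhd15 KO 1, read nearly the same value, and the other 6 lay between 7.46 and 7.93. The means were 7.88 ± 0.65 and 7.91 ± 0.43, which differed by 0.03 (−0.68 to 0.73, exact permutation p = 1). It was −0.17 without WT 1, −0.15 without WT 3, 0.40 without WT 2 and −0.15 without Abhd15 KO 1. The other Foxo1 probe set, which was dimmer, was also highest in Abhd15 KO 1 (6.06) and WT 2 (5.92), with 4.39 to 5.57 in the other 6 arrays.

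Foxo3, a relative of Foxo1 that shares its DNA motif, read 4.92, 5.21 and 4.51 in WT and 5.48, 4.71, 5.21, 4.01 and 4.99 in the KO-labelled mice. Abhd15 KO 1 was highest, WT 2 and Abhd15 KO 3 followed, and Abhd15 KO 4 was lowest. The difference between the labels was 0.01 (−0.68 to 0.70, exact permutation p = 0.982). It was below 0 without WT 3 (−0.18), Abhd15 KO 1 (−0.14), Abhd15 KO 3 (−0.08) or Abhd15 KO 5 (−0.02), and 0.22 without Abhd15 KO 4.

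**Figure D2:**
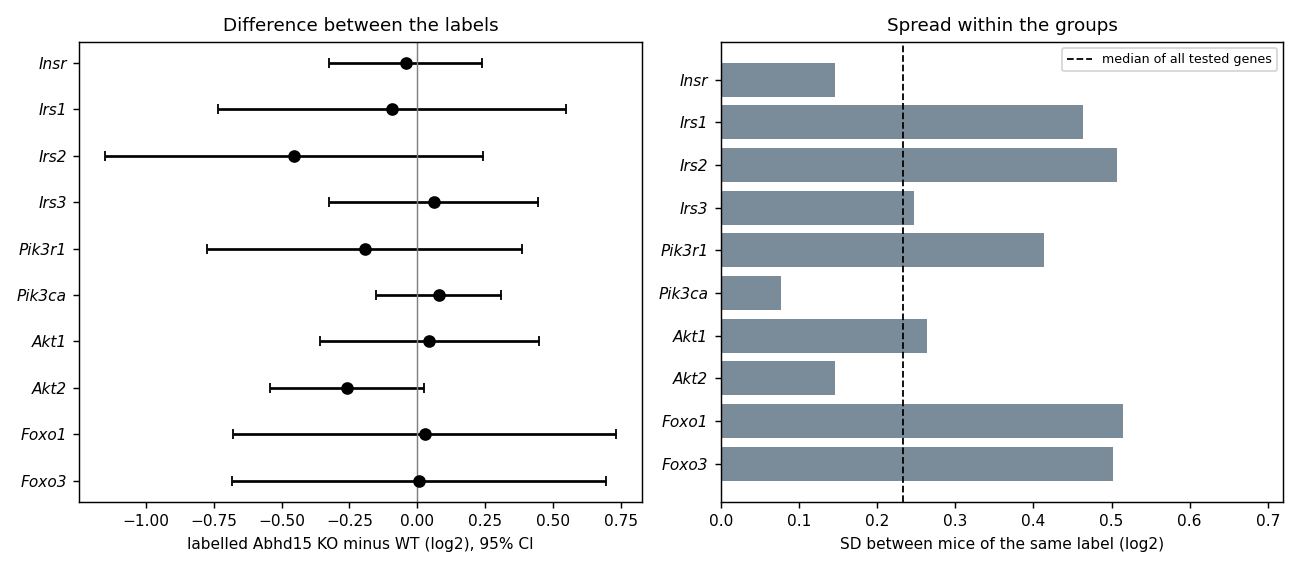
Left, the difference between the KO-labelled mice and WT (log2, horizontal axis) of each gene with its 95% confidence interval from limma. All intervals include 0. Right, the SD between mice of the same label (log2), with the median of all tested genes as a dashed line, which Irs1, Irs2, Pik3r1, Foxo1 and Foxo3 exceed most.

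The 10 genes differed widely in how much they varied between mice of the same label. The residual SD was 0.51 for Foxo1, 0.51 for Irs2, 0.50 for Foxo3 and 0.46 for Irs1, which placed these 4 genes between the 91.8th and the 94.6th percentile of all tested genes, whose median was 0.23. Pik3r1 followed with 0.41 (87.8th percentile). Akt1 (0.26) and Irs3 (0.25) were near the median. Akt2 and Insr, each with 0.15, were at the 20.5th and 20.3rd percentile, and Pik3ca, with 0.08, was at the 2.82nd. In limma the width of a confidence interval follows this spread after it is drawn towards a value shared by all tested genes. The widths therefore differ less than the spreads do. The Pik3ca interval ended at −0.15 and 0.31, whereas the Foxo1 and Foxo3 intervals reach about 0.7 on either side.

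Part of this spread was shared by 2 mice of different labels. WT 2 and Abhd15 KO 1 were the 2 lowest arrays for Irs1, Insr and Akt1 and the 2 highest for Foxo1, which made 4 of 10 genes, beside 16.5% of all tested genes that had this pair at an end of their range. The pair was picked out because of its values in Irs1, Foxo1 and Angptl8, so the count is a description and supports nothing further. These were also the arrays lowest in Angptl8, a feeding-induced secreted protein, with 7.95 and 7.90 against 10.42 to 10.81 in the other 6. Irs2 did not order the mice in this way. It was highest in WT 2, but WT 1 (7.31) and Abhd15 KO 3 (7.01) both exceeded Abhd15 KO 1 (6.70). Without both arrays the difference between the labels was 0.22 for Foxo1, −0.21 for Irs1, −0.13 for Insr and −0.004 for Akt1. It was −0.26 for Irs2, −0.31 for Akt2, −0.38 for Pik3r1, 0.05 for Pik3ca, 0.01 for Irs3 and 0.02 for Foxo3, and 0 of the 10 genes passed with limma (lowest adjusted p = 0.9997). This setting was added after the values were seen. What these 2 mice had in common is not given in the labels and was not tested.

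**Figure D3:**
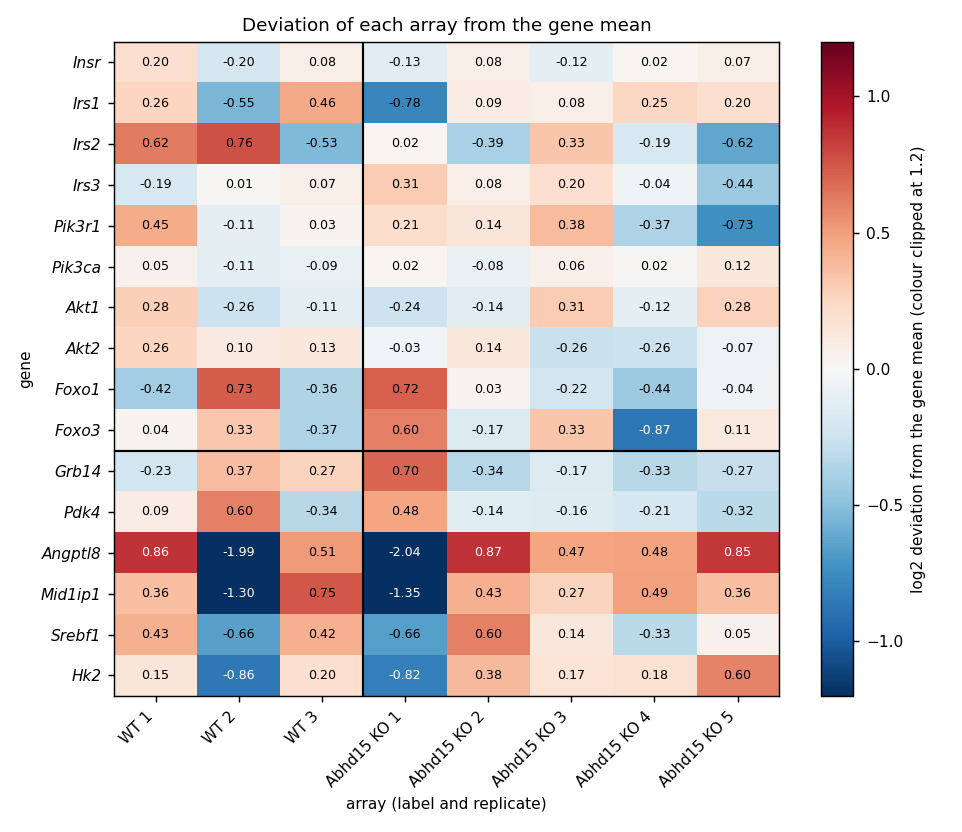
Deviation of each array (columns, by label and replicate) from the mean of the gene over 8 arrays (rows, log2), with the insulin signalling genes above the line and Grb14, Pdk4, Angptl8, Mid1ip1, Srebf1 and Hk2 below it. In WT 2 and Abhd15 KO 1, Irs1, Angptl8, Mid1ip1, Srebf1 and Hk2 are low and Foxo1, Grb14 and Pdk4 are high, while Irs2 is high in WT 2 and near its mean in Abhd15 KO 1.

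Irs2 was set against the FOXO factors across the mice. For Foxo1 the arrays formed 2 clusters, with WT 2 and Abhd15 KO 1 apart, so no test over all 8 is given. This departs from the plan, which set the cluster rule for Irs2 alone. The largest gap in Irs2 was 22.3% of its range, so the plan would have kept all 8 arrays. Over all 8 arrays r was 0.30, given as a description, and its sign turned when these 2 arrays were left out. Within the other 6 arrays Pearson's r was −0.46 (exact permutation p = 0.354, adjusted p = 0.708) and Spearman's rho −0.49 (exact permutation p = 0.356, adjusted p = 0.711). WT 1, next to highest in Irs2 (7.31), had a Foxo1 value (7.48) close to the lowest of all, and WT 2, the highest in Irs2 (7.45), had the highest Foxo1 value (8.63).

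For Foxo3, r over 8 arrays was 0.44 (exact permutation p = 0.278, adjusted p = 0.708) and rho 0.43 (exact permutation p = 0.299, adjusted p = 0.711). Without the 2 arrays farthest from the Irs2 median, WT 2 and WT 1, r was 0.42. With deviations from the group means in place of the values r was 0.50. Neither FOXO gene was therefore shown to go with Irs2 across these mice.

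These 2 relations belong to a family of 8 between Irs2 and the other genes, over which the p-values were adjusted, and 0 of 8 passed. Akt1 was left out because its 2 clusters held fewer than 6 arrays each. For Pik3r1, which had the highest r, r was 0.53 (exact permutation p = 0.174, adjusted p = 0.708). For Insr, r was −0.38 (exact permutation p = 0.347, adjusted p = 0.708), and for Irs1, within the 6 arrays that cluster, −0.25 (exact permutation p = 0.643, adjusted p = 0.748). For Irs3, r was 0.20 (exact permutation p = 0.639), for Akt2 0.18 (exact permutation p = 0.655) and for Pik3ca −0.12 (exact permutation p = 0.778), each with an adjusted p of 0.748 or more. Without WT 1 and WT 2, the 2 arrays farthest from the Irs2 median, r became −0.91 for Insr, 0.70 for Irs3, 0.68 for Pik3r1, −0.62 for Akt2 and 0.21 for Pik3ca, so the sign turned for Akt2 and Pik3ca and the value over all 8 depended on these 2 arrays. The values over the other 6 arrays carry no test.

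**Figure D4:**
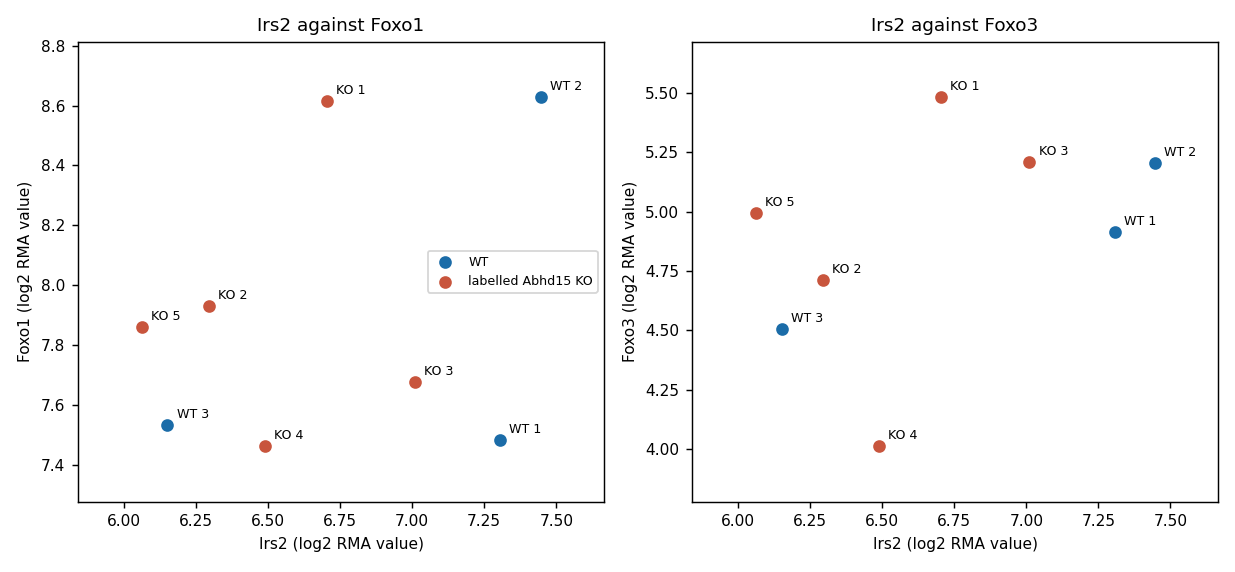
Irs2 (horizontal axis) against Foxo1 (left) and Foxo3 (right), in log2 RMA values, with 1 point per mouse coloured by label. On the left WT 2 and Abhd15 KO 1 lie above the other 6 mice at different Irs2 values, and on the right the points scatter around a weak upward trend (r = 0.44).

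The genes whose pattern over the 8 arrays was most like that of Irs2 were Dok2 (r = 0.96), an adaptor of tyrosine kinases in blood cells, Uchl5 (0.96), a deubiquitinase of the proteasome, Fads1 (0.95), a fatty acid desaturase, Tnfaip8 (0.95) and Adamts12 (0.92), a secreted protease. Fads1 read 6.09, 6.28 and 5.76 in WT and 6.01, 5.83, 6.19, 5.87 and 5.68 in the KO-labelled mice, highest in WT 2 and lowest in Abhd15 KO 5, as Irs2 was. The most opposite pattern was that of Hspa8 (r = −0.98), the constitutive heat shock chaperone HSC70, followed by Scai (−0.95), Ninj1 (−0.93), Trmt10c (−0.93) and Wwp2 (−0.93). Hspa8 read 11.34, 11.30 and 11.59 in WT and 11.47, 11.50, 11.35, 11.49 and 11.56 in the KO-labelled mice, lowest in WT 2 where Irs2 was highest. These are the extremes of 14327 genes over 8 points and are given as a description. Dok2 read 3.59 or less on every array, not far above the dim limit of 2.67.

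Other genes of the pathway were read from 7 lists that hold 107 genes besides the 10, of which 96 were tested. With limma 0 of the 96 passed, 46 read higher and 50 lower in the KO-labelled mice, and the median difference was −0.01. An unadjusted p under 0.05 was found for 4 of 96 (4.17%), near the 4.22% of all tested genes, and the groups did not overlap in the same number, against 2.95% of all tested genes.

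The 9 tested receptor relatives and adaptors had a median difference of 0.03. The largest were Igf1r, the receptor of insulin-like growth factor, at 0.20 (−0.29 to 0.68), Sh2b2, an adaptor that binds the insulin receptor, at 0.19 (−0.22 to 0.60), Gab1, a docking protein, at −0.22 (−0.62 to 0.17) and Sh2b1 at −0.13 (−0.52 to 0.25). The 11 tested enzymes of phosphoinositides had a median of −0.05. Pik3r3, another regulatory subunit, differed by 0.47 (−0.08 to 1.01) and the catalytic subunit Pik3cd by 0.18 (−0.40 to 0.77). Inpp4b, a phosphatase that removes phosphate from an AKT-binding lipid, read 3.43, 3.58 and 3.17 in WT and 2.90, 2.69, 3.12, 2.98 and 2.88 in the KO-labelled mice. Its groups did not overlap (difference −0.48, −0.79 to −0.17, limma adjusted p = 0.9996), and it was close to the dim limit. Pik3cg, the catalytic subunit of white blood cells, differed by −0.33 (−0.96 to 0.29), and the macrophage markers read lower in 9 of 10 genes. Their part in the Pik3cg value was not tested.

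Among 12 tested brakes on the receptor and AKT the median difference was 0.01. Trib2, a pseudokinase, had the lowest unadjusted p of these lists. It read 4.24, 3.91 and 4.27 in WT and 4.59, 4.77, 4.85, 4.82 and 4.85 in the KO-labelled mice, with no overlap, a gap between the means of 0.63 (0.35 to 0.91) and an adjusted p of 0.977 from limma. Phlpp1, a phosphatase of AKT, differed by 0.26 (−0.04 to 0.56), Grb14, which blocks the receptor kinase, by −0.22 (−0.79 to 0.35) and Trib1 by −0.18 (−1.02 to 0.67). Grb14 was highest in Abhd15 KO 1 (5.40) and WT 2 (5.07).

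The 15 tested AKT substrates and mTOR components had a median of −0.06 and a narrow range, from Akt1s1, an inhibitory mTORC1 subunit, at −0.21 (−0.54 to 0.11) and the kinase Gsk3b at −0.16 (−0.44 to 0.11) to Tsc1 at 0.14 (−0.27 to 0.55) and Rheb, the GTPase that switches on mTORC1, at 0.14 (−0.18 to 0.47). Of 11 FOXO relatives and regulators the median was −0.06. Foxo4 differed by −0.24 (−0.63 to 0.15), the acetyltransferase Crebbp by 0.11 (−0.18 to 0.40) and the 14-3-3 protein Ywhaz by 0.10 (−0.13 to 0.34). For Foxo6 no difference is given, because its mean in the KO-labelled mice (2.46) lay below the dim limit of 2.67. Its WT mean was 3.10.

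**Figure D5:**
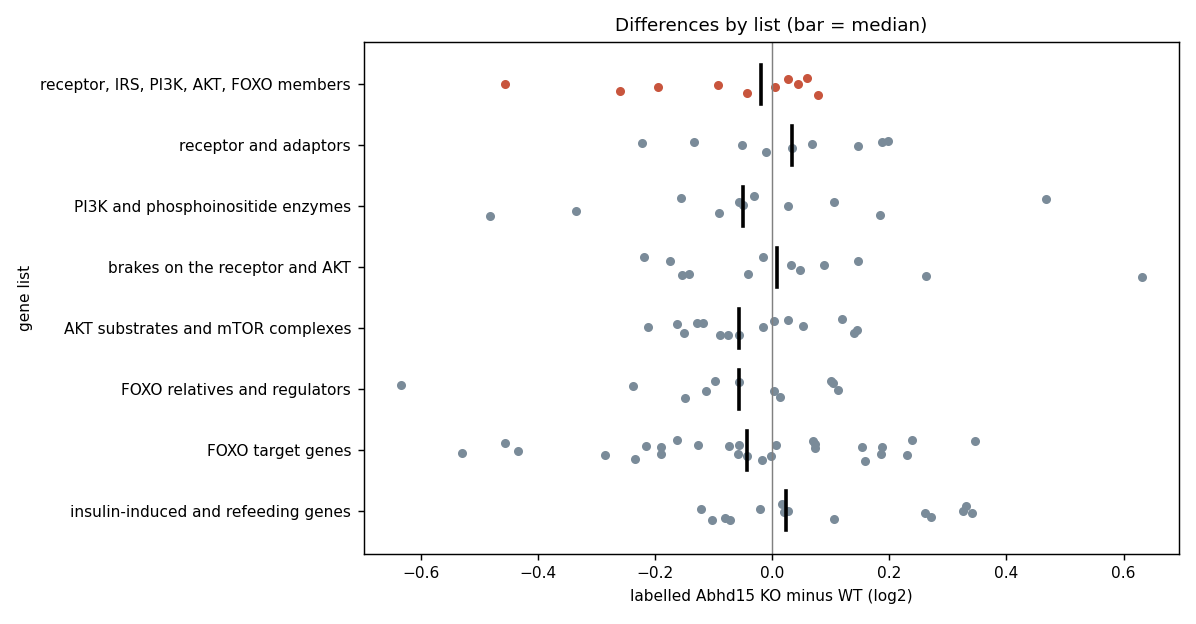
Difference between the KO-labelled mice and WT (log2, horizontal axis) of each tested gene, by list (rows), with a bar at the median of each list. The medians of the 8 rows lie between −0.06 and 0.03.

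No gene known as a FOXO target passed the test. Of 27 tested, which count Insr and Irs2 again, 11 read higher and 16 lower, the median was −0.04, and 0 passed with limma. Cdkn1a, a brake on the cell cycle, read 10.23 ± 0.14 in WT (SD, n = 3) and 10.57 ± 0.20 in the KO-labelled mice (SD, n = 5), with no overlap (difference 0.35, 0.03 to 0.66). Cited2, a transcriptional co-regulator, differed by −0.43 (−0.98 to 0.11). Fbxo32, a ubiquitin ligase of muscle wasting, differed by −0.53 (−1.76 to 0.71). It was highest in WT 1 (8.73) and lowest in Abhd15 KO 2 (5.86), the arrays with the highest and lowest mean of the skeletal muscle markers (8.07 and 4.56), whose 16 genes all read lower in the KO-labelled mice. Their part in the Fbxo32 value was not tested. G6pc, a gene of glucose release in liver, read close to the dim limit in both groups (2.70 and 2.94).

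Cited2 (r = 0.77), Pdk4 (0.72) and the cell cycle inhibitor Cdkn1b (0.66) were the FOXO targets most like Irs2 over the 8 arrays, and Cdkn1a (−0.64), Sod2 (−0.54) and Bcl6 (−0.28) the least. The cluster rule was not applied to these r. In Cited2, WT 2 (7.265), also the highest array in Irs2, stood apart above the other arrays (5.931 to 6.596). Pdk4, a kinase that blocks pyruvate oxidation in fasting, read 11.68, 12.19 and 11.25 in WT and 12.07, 11.45, 11.43, 11.38 and 11.27 in the KO-labelled mice. It was highest in WT 2 and Abhd15 KO 1, like Foxo1, and WT 1 came next.

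In the list of insulin-induced and refeeding genes 9 of 14 read higher and 5 lower, with a median of 0.02 and 0 passing with limma. Slc2a4, the insulin-responsive glucose transporter GLUT4, had a difference of 0.34 (0.09 to 0.59) with no overlap. Angptl8 differed by 0.33 (−1.44 to 2.11), Thrsp, a lipogenic protein, by −0.12 (−0.41 to 0.16) and Srebf1, the gene of the lipogenic factor SREBP1, by −0.10 (−0.83 to 0.63). Against Irs2, the highest r were those of the lipogenic enzymes Acaca (0.65), Scd1 (0.56) and Elovl6 (0.51), and the lowest those of hexokinase 2 (Hk2, −0.60), Slc2a4 (−0.57) and Mid1ip1 (−0.52). These r are over all 8 arrays, without the cluster rule used for Foxo1. In Hk2 and Mid1ip1, WT 2 and Abhd15 KO 1 stood apart below the other 6 arrays. The Srebf1 probe set read 6.85 in WT 2 and 6.85 in Abhd15 KO 1 and between 7.18 and 8.11 in the other 6, and Hk2 read 8.97 and 9.00 there and between 9.97 and 10.42 elsewhere. Over all lists, 26 of the 96 genes besides the 10 (27.1%) had that pair at an end of their range, beside 16.5% of all tested genes. The share ran from 0 of 11 phosphoinositide enzymes through 20.0% of the AKT substrates and mTOR components, 22.2% of the receptor relatives and adaptors, 25.0% of the brakes, 29.6% of the FOXO targets (Insr among them) and 36.4% of the FOXO relatives to 7 of 14 insulin-induced and refeeding genes (50%). Angptl8, one of the genes by which the pair was picked, is in the last list, and these shares are a description.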

How the data were processed

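The deposited values are log2 values per probe set, made by the authors with RMA and the oligo package per the submitters' processing notes, while the design text per the labels names Affymetrix Expression Console. The sources used here give no version and no genome build. RMA quantile-normalizes the arrays, which would hide a change common to most genes. The table held 41345 probe sets, its arrays had medians of 3.00 to 3.04 and correlated at 0.964 to 0.975, so none was a copy. Arrays give no read depth. Their number limits the precision.

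Genes were assigned from the annotation of the platform (23521 with 1 symbol, 1814 with several, 16010 unnamed), checked by Entrez identifier against RefSeq (23328 matched, 0 symbols updated). The brightest single-symbol probe set stood for a gene. The dim limit, 2.67, was the 95th percentile of the means of 1400 olfactory and vomeronasal receptor probe sets, and genes above it on at least 3 arrays were tested with limma 3.58.1 in R 4.3.3 (lmFit, eBayes, Benjamini-Hochberg). Confidence intervals carry no adjustment for multiple genes. For single genes an exact permutation test (two-sided) was used, and for relations across mice Pearson's r and Spearman's rho with exact two-sided permutation over pairings. A gap between neighbouring values over 50% of the range, in Irs2 or the other gene, was read as separate clusters. The plan set this rule for Irs2 alone, and its use on the other gene is a departure from it. The pathway genes named are the 2 largest differences per list and direction and, in 2 lists, the 3 genes most and least like Irs2. For likeness the 5 most and least like Irs2 of all tested genes are named, leaving out predicted genes and small RNAs. The steps were tested on simulated data. The genes and lists were chosen with earlier results of these data known. The labels call each array a mouse but give no litter, cage or harvest day. Same-numbered mice did not deviate together (r of their deviations −0.24, −0.09 and 0.01), so replicate numbers were not used as pairs. Alternatives were a replicate block, other filters, scalings, fitting options and probe set rules, a muscle covariate and leaving out arrays.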

Additional observations from a re-analysis of the deposited data

Results flagged for a closer look

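Some values stood apart within the 5 arrays labelled Abhd15 KO, by the gap to the nearest other array relative to the group's range (Dixon's 95% limit for 5 values). Of 59 genes checked 7 had such a value, and chance alone flags about 1 in 20 groups. Groups of 3 cannot be checked in this way. In Abhd15 KO 1, Irs1 read 6.38 against 7.24 to 7.41 in the other 4 mice of the label, Angptl8 7.90 against 10.42 to 10.81, Mid1ip1 4.93 against 6.55 to 6.77, Grb14 5.40 against 4.35 to 4.53 and Pdk4 12.07 against 11.27 to 11.45. Akt1s1 was lowest in Abhd15 KO 4 (4.52, against 4.99 to 5.08), and Tnfaip8 highest in Abhd15 KO 3 (3.72, against 3.36 to 3.46).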

How the results depend on the processing

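With limma 0 genes, and 0 of the 10 insulin signalling genes, passed an adjusted p of 0.05 under any of the 18 alternatives, 17 planned and 1 added. At an unadjusted limma p under 0.05 there were from 463 of 11734 genes (above the dim limit in all arrays) to 1019 of 22180 (no filter on dim genes). Of the 10 there was at most 1. It was Akt2 with trend and robust fitting and without Abhd15 KO 2, and Irs2 without WT 3. The lowest adjusted p was 0.203 over all genes (without WT replicate 1) and 0.932 among the 10. With the replicate block 0 genes passed. Irs2, Akt2 and Pik3ca kept their direction in all alternatives. The sign turned only in the other 7 genes, and none of the 10 passed the test with all arrays. The sign turned in 19 of the 180 values of all 10 genes over the 18 alternatives, and these fell in 9 of the alternatives. With the replicate block Pik3r1 differed by 0.12, Foxo3 by 0.26 and Irs2 by -0.30, with the mean of both probe sets Foxo1 by −0.029, and without WT 2 and Abhd15 KO 1 Akt1 by −0.004. Leaving out each array in turn gave −0.16 to 0.045 for Insr, −0.39 to 0.11 for Irs1, −0.86 to −0.22 for Irs2, −0.017 to 0.17 for Irs3, −0.31 to −0.03 for Pik3r1, 0.05 to 0.13 for Pik3ca, −0.069 to 0.20 for Akt1, −0.32 to −0.21 for Akt2, −0.17 to 0.40 for Foxo1 and −0.18 to 0.22 for Foxo3. The cause of these changes was not tested. Irs2 against Foxo3 kept its sign, with r from 0.35 to 0.56 when each array was left out. Within the 6 arrays that cluster, Irs2 against Foxo1 ranged from −0.51 to −0.21 over its other settings, whereas r over all 8 arrays was 0.30. Arrays were not left out in turn for Foxo1, since fewer than 6 would remain in the cluster. The spread of Irs1, Irs2, Foxo1 and Foxo3 limits what 3 against 5 mice can show.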
